A study of Oryctolagus cuniculus with 15 samples.

Results

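The genes of cholesterol and isoprenoid synthesis, their regulators and a set of sterol transport and fatty acid genes were followed in rabbit corneal keratocytes cultured on or in collagen. The set is a fixed list of 40 symbols grouped by pathway step, chosen with earlier results of these data known. Of these, 34 have a row among the 23428 genes of the count table. By step these were 8 of 10 mevalonate genes, 10 of 12 sterol genes, all 5 regulators, all 6 uptake and transport genes and 5 of 7 fatty acid genes. The other 6 symbols (FASN, SCD, MVD, IDI1, DHCR7 and CYP51A1) are not analysed here under those names. LOC100355623 carries the deposited description and the RefSeq symbol of CYP51A1, the lanosterol demethylase, and stands for it below. All 34 genes passed the filter on low counts in each of the 6 comparisons. The libraries of a single condition can be enough to pass it, and STARD4 had 8 to 27 reads per 3DF library.

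Animal cells build cholesterol from acetyl-CoA. The mevalonate steps make farnesyl diphosphate, which is either passed to squalene and the sterols or used for longer isoprenoids and for lipid anchors on proteins. The transcription factor SREBP-2, encoded by SREBF2, is the main activator of these genes, while SREBP-1, encoded by SREBF1, acts more on fatty acid synthesis. Both are held in the endoplasmic reticulum with the escort protein SCAP, and the INSIG proteins keep the escort there when sterols are plentiful. Liver X receptors, which are activated by oxidised sterols, act in the other direction and raise the efflux pumps ABCA1 and ABCG1 and MYLIP, a ubiquitin ligase that marks low-density lipoprotein receptors for degradation.

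The cells were primary keratocytes (NRKs) of New Zealand white rabbits at first passage, the fibroblast-like cells of the corneal stroma, and every condition was kept in the same serum-free medium for 6 days. In 2DC the cells grew on dishes coated with type I collagen, and 2DC_L was the same culture lysed directly in the dish. In 2DF they grew on top of a polymerised matrix of fibrillar collagen, in 3DF they were embedded in such a matrix at 100000 cells per matrix, and in 3DF_50 at 50000. The cells of 2DC, 2DF, 3DF and 3DF_50 were incubated in a digestion medium before lysis, and those of 2DC_L were not. Each condition has 3 libraries (n = 3 for every mean below), each pooled from the dishes or matrices of 1 experiment, with 14626982 to 31804255 counted reads per library. The collagen was bovine. The substrate differs from 2DC to 2DF, and the embedding from 2DF to 3DF. The paper names a stiffness difference between 2DC and 2DF as a possible confounder. It also gives a lower effective cell density for the embedded cells than for those on a surface. The part of stiffness and of this density difference in the values below was not tested. Levels are in FPKM (fragments per kilobase of gene, scaled to the size of the library) as deposited, and genes are compared with each other only on that scale.

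A gene was called a DEG where edgeR's quasi-likelihood test gave an adjusted p of 0.05 or less (Benjamini-Hochberg, over all genes tested) and the log2 fold change was 1 or more in size. "Rose" and "fell" are used for genes past the adjusted p, and fold changes are log2 with their SE. The keratocyte markers KERA and LUM were at 1507 FPKM or more in every library, and the defining markers PECAM1, CLDN5, PTPRC and ADIPOQ were below 0.2 FPKM in every library. Other markers on the same lists were higher. The vascular endothelial marker KDR was at 30.6 to 115.4 FPKM and rose in 3DF against 2DC (1.30 ± 0.22, adjusted p = 0.00625), CDH5 was at 1.70 to 6.20 FPKM and rose in 2DF against 2DC (1.30 ± 0.19, adjusted p = 0.0027), and the macrophage marker CD68 was at 1.44 to 7.30 FPKM. COL8A2, listed for corneal endothelium, was at 66.5 to 416.0 FPKM and fell by 1.31 in 3DF against 2DC (SE 0.24, adjusted p = 0.00793). The 7 corneal epithelial markers with a row summed to between 0.0719 and 0.944 FPKM in the coated dishes, to between 0.685 and 6.21 in 2DF and to between 7.74 and 12.7 in 3DF. In 3DF_50 that sum was 0.0786, 0.116 and 5.92 FPKM. The part of these cell types in the differences below was not tested. In bulk RNA, fewer cells of a type and less RNA per cell cannot be told apart.

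In 3DF against 2DC, where substrate and dimensionality change together, 21 of the 34 genes were DEGs, 18 lower and 3 higher. Of all 13493 genes tested 7.56% were DEGs, 4.32% lower and 3.24% higher. The median log2 fold change of the 34 genes was -1.18, beside 0.012 over all genes tested. By the adjusted p alone 20 fell and 4 rose, against 8.38% and 6.98% of all genes, or 15.4% in either direction. The 18 lower DEGs were 5 mevalonate, 8 sterol, 2 regulator, 1 transport and 2 fatty acid genes. The higher ones were ABCA1, ABCG1 and the desaturase gene FADS2.

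**Figure D1:**
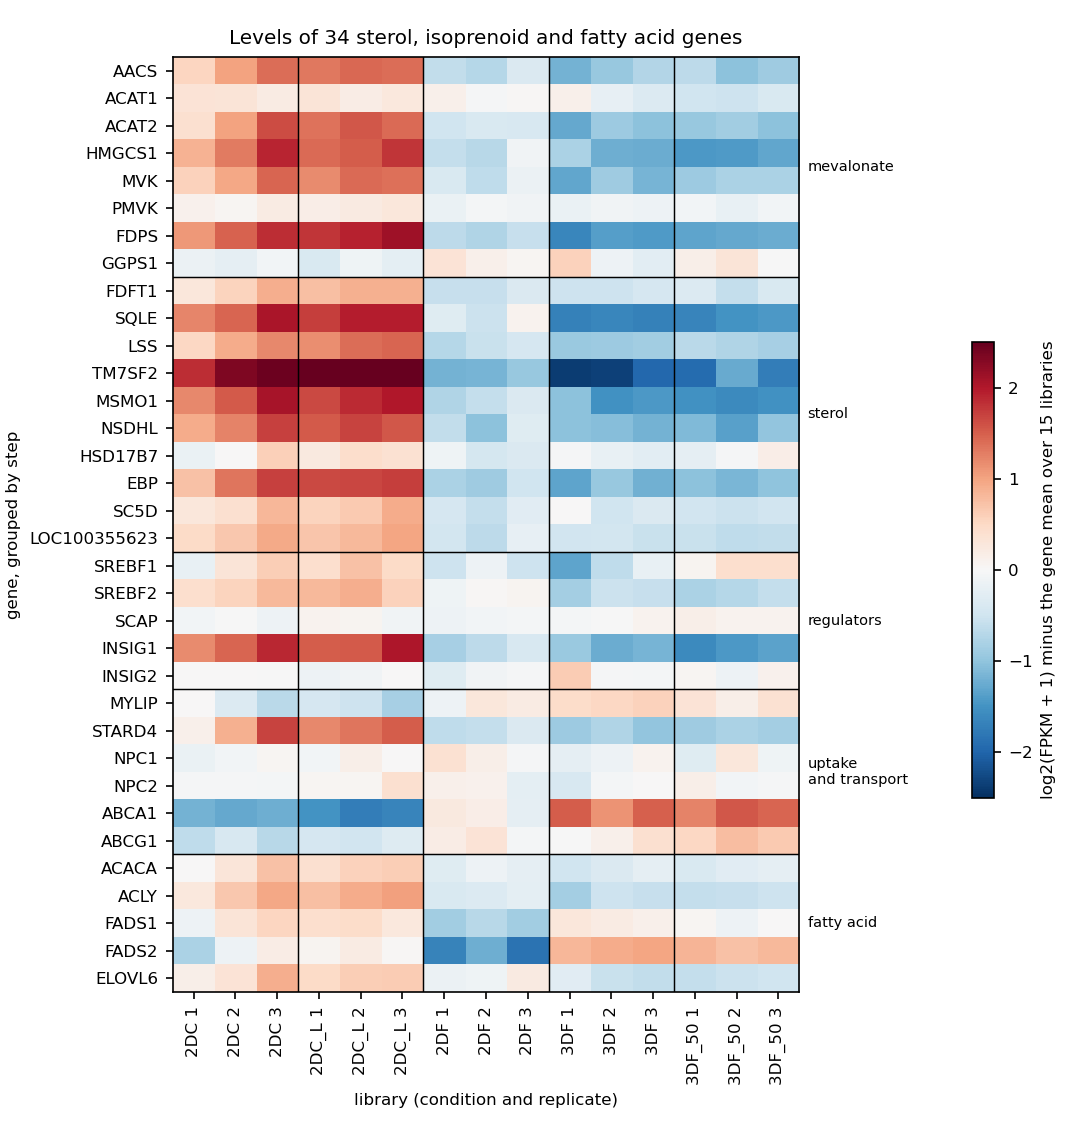
Heat map of log2(FPKM + 1) minus each gene's mean, of the 34 genes (rows, grouped by step) in the 15 libraries (columns, 3 per condition). Red is above and blue below the gene's mean. In 21 of the 34 genes every library of 2DC and 2DC_L lies above every library of 2DF, 3DF and 3DF_50, and ABCA1 and ABCG1 show the reverse.

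Over all 5 conditions 29 of the 34 genes differed at an adjusted p of at most 0.05 in a single F test, against 41.8% of the 14036 genes tested. GGPS1, SCAP, INSIG2, NPC1 and NPC2 did not pass. In 21 genes each of the 6 libraries from coated dishes was above each of the 9 libraries from fibrillar collagen, an order found in 6.88% of all genes tested. It was shown by 7 of 8 mevalonate and 9 of 10 sterol genes, by SREBF2 and INSIG1, by STARD4, and by ACACA and ACLY. The reverse order was found in ABCA1 and ABCG1 only among the 34 genes, and in 5.33% of all genes tested. A descending order without overlap from 2DC through 2DF to 3DF was seen in 14 genes, against 2.13% of all genes tested. ABCA1 alone of the 34 ascended in that way, against 1.5% of all genes tested.

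The mevalonate genes from acetyl-CoA to farnesyl diphosphate were mostly lower on fibrillar collagen. HMGCS1 (chr11:64082862-64104247), the cytosolic HMG-CoA synthase, was at 26.1, 35.1 and 54.6 FPKM in 2DC, at 8.74, 8.11 and 12.8 in 2DF and at 7.49, 5.33 and 5.24 in 3DF. The 3 conditions did not overlap, and the fold change in 3DF was -2.69 ± 0.28 (adjusted p = 0.000599). FDPS (chr13:37386879-37396869), which makes farnesyl diphosphate, was at 34.5, 45.6 and 59.7 FPKM in 2DC, at 9.75, 8.98 and 10.3 in 2DF and at 4.45, 5.48 and 5.33 in 3DF. Its fold change of -3.20 ± 0.22 in 3DF (adjusted p = 0.000159) was the lowest of the mevalonate genes. The farnesyl diphosphate synthase level in every 3DF library was thus under 6 FPKM, and in every 2DC library over 34.

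The other mevalonate DEGs of 3DF against 2DC had fold changes between -2.08 and -2.70. MVK, the mevalonate kinase, had a mean of 10.8 ± 3.62 FPKM (SD) in 2DC, 3.41 ± 0.743 in 2DF, and 1.66 ± 0.401 in the 3DF libraries, with a fold change of -2.70 ± 0.28 (adjusted p = 0.000601). AACS, which activates acetoacetate in the cytosol, was at 43.0 ± 12.6, 13.8 ± 1.90 and 10.3 ± 1.70 FPKM and fell by 2.08 on the log2 scale (SE 0.23, adjusted p = 0.000783). ACAT2, the cytosolic thiolase that starts the route, was at 64.0 ± 27.2, 21.6 ± 0.942 and 13.6 ± 1.87 FPKM and fell by 2.25 (SE 0.29, adjusted p = 0.00176). The ACAT2 model overlaps TCP1 on the opposite strand, and the strandedness of the counting is not given in the sources used here, so that reads of the shared stretch cannot be told apart. TCP1, a chaperonin subunit, was at 68.6 to 85.3 FPKM in all libraries and had a fold change of 0.070 (adjusted p = 0.718).

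The remaining 3 mevalonate genes did not pass the test in 3DF against 2DC. ACAT1, the mitochondrial thiolase and the most abundant gene of the step, was at 65.9 ± 3.40 FPKM in 2DC, 55.1 ± 3.31 in 2DF, and 49.0 ± 8.71 in the 3DF libraries, with a fold change of -0.44 ± 0.14 (adjusted p = 0.0712). Its model lies inside that of GNG10 on the same strand, as does that of SC5D, and the ABCA1 model lies inside it on the opposite strand. PMVK, which follows MVK in the route, was at 16.1 ± 0.931 FPKM in 2DC and 13.4 ± 0.433 in 3DF. Its fold change was -0.27 (adjusted p = 0.149), although every 2DC library was above every 3DF library. GGPS1, which leads from farnesyl to geranylgeranyl diphosphate and away from sterols, was at 8.89 ± 0.541 FPKM in 2DC and 10.8 ± 3.96 in 3DF (fold change 0.27, adjusted p = 0.473). In 3DF, replicate 1 held 15.4 FPKM of GGPS1 and the other libraries 8.99 and 8.11.

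Of the 10 sterol genes downstream of farnesyl diphosphate, 8 were lower DEGs in 3DF against 2DC, and they held the lowest fold change of the 34 genes, that of TM7SF2. TM7SF2 (chrUn0244:168323-172200), a sterol reductase that acts after the lanosterol demethylase, was at 53.2, 75.8 and 82.0 FPKM in 2DC, at 5.65, 5.80 and 6.82 in 2DF and at 1.91, 1.99 and 2.91 in 3DF. The conditions were far apart, with counts of 2290 to 2657 per 2DC library and of 66 to 86 per 3DF library. The fold change was -4.97 ± 0.24 in 3DF (adjusted p = 4.36e-05), the 31st lowest of all 13493 genes tested. In 2DF it was -3.52 ± 0.18 against 2DC (adjusted p = 2.63e-05), and from 2DF to 3DF TM7SF2 fell by a further 1.43 (SE 0.23, adjusted p = 0.00618).

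SQLE (chr3:140710599-140735970), the squalene epoxidase and a slow step of the route, was at 26.2, 31.0 and 47.4 FPKM in 2DC, at 8.48, 7.05 and 11.5 in 2DF and at 2.63, 2.77 and 2.65 in 3DF. Its fold change was -3.71 ± 0.23 in 3DF against 2DC (adjusted p = 0.000124), -1.95 ± 0.24 in 2DF against 2DC (adjusted p = 0.00148) and -1.74 ± 0.20 in 3DF against 2DF (adjusted p = 0.00127). SQLE levels in the 3DF libraries lay within 0.2 FPKM of each other, the SD being 0.0741 around a mean of 2.68. Each of the 3 conditions was set apart from the others for this gene.

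Among the next enzymes, MSMO1, a sterol methyl oxidase, was at 81.0 ± 25.3 FPKM in 2DC, 16.7 ± 2.45 in 2DF, and 9.59 ± 1.96 in the 3DF libraries, and fell by 3.09 in 3DF against 2DC (SE 0.25, adjusted p = 0.000213). NSDHL, the dehydrogenase that acts with it, was at 14.4 ± 4.22, 3.01 ± 0.970 and 1.90 ± 0.161 FPKM and fell by 2.92 (SE 0.23, adjusted p = 0.000206). EBP, a sterol isomerase, was at 61.6 ± 20.2, 14.3 ± 2.26 and 10.4 ± 1.53 FPKM and fell by 2.58 (SE 0.25, adjusted p = 0.000475). LSS, the lanosterol synthase and the most abundant sterol gene, was at 70.3 ± 16.3, 24.8 ± 2.69 and 19.4 ± 0.498 FPKM and fell by 1.87 (SE 0.17, adjusted p = 0.000389). In none of these 4 genes did a 2DC library overlap the 2DF or 3DF libraries.

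Smaller differences were measured in the other sterol genes. LOC100355623, the lanosterol demethylase, was at 36.7 ± 6.32 FPKM in 2DC, 16.2 ± 2.71 in 2DF, and 15.3 ± 0.536 in the 3DF libraries, and fell by 1.27 (SE 0.14, adjusted p = 0.000809). FDFT1, the squalene synthase that commits farnesyl diphosphate to sterols, was at 49.4 ± 11.2, 22.4 ± 2.15 and 22.7 ± 0.890 FPKM and fell by 1.13 (SE 0.17, adjusted p = 0.00305). Without 2DC replicate 3 the FDFT1 fold change was -0.93, inside the limit of 1. SC5D, a late sterol desaturase, was at 24.7 ± 5.43, 12.3 ± 1.47 and 13.8 ± 2.75 FPKM and fell by 0.85 (SE 0.19, adjusted p = 0.019), and without 3DF replicate 1 by 1.02. HSD17B7, a sterol ketoreductase, was at 13.4 ± 4.21 and 10.4 ± 0.999 FPKM in 2DC and 3DF and did not pass the test (fold change -0.37, adjusted p = 0.294). For HSD17B7 the libraries of 2DC overlapped those of both other conditions.

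**Figure D2:**
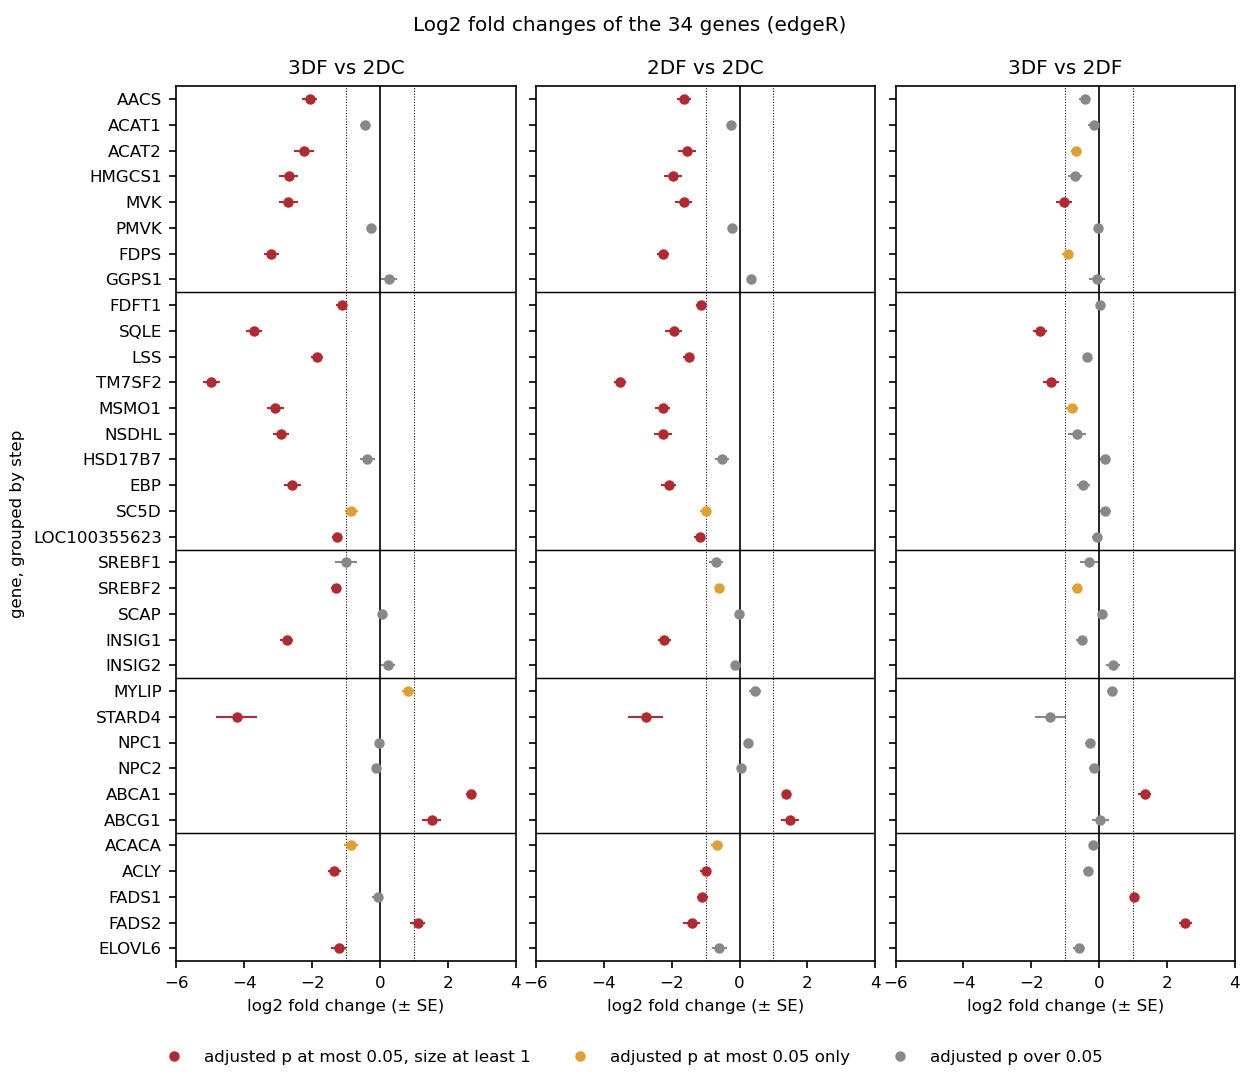
Log2 fold changes of the 34 genes with their SE (bars) in 3 panels (3DF against 2DC, 2DF against 2DC, and 3DF against 2DF), grouped by step. Red points are DEGs, orange points pass the adjusted p alone, and dotted lines mark a fold change of 1 in either direction. TM7SF2 at -4.97 is lowest in 3DF vs 2DC, and FADS2 lies on opposite sides of 0 in 2DF vs 2DC and 3DF vs 2DC.

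Of the 5 regulators, INSIG1 and SREBF2 were DEGs in 3DF against 2DC, and INSIG2, SREBF1 and SCAP did not pass the test. INSIG1 (chr13:11973217-11983345), itself a target of SREBP, was at 60.6, 73.8 and 100.4 FPKM in 2DC, at 14.3, 16.3 and 19.6 in 2DF and at 13.4, 10.6 and 11.1 in 3DF. It fell by 2.75 in 3DF against 2DC (SE 0.20, adjusted p = 0.000161) and by 2.22 in 2DF against 2DC (SE 0.19, adjusted p = 0.000313). INSIG2, which is not driven by SREBP in the same way, was at 10.9 ± 0.136 FPKM in 2DC, 9.80 ± 1.03 in 2DF, and 12.9 ± 3.99 in the 3DF libraries, with a fold change of 0.24 in 3DF against 2DC (adjusted p = 0.461). The ratio of INSIG1 to INSIG2 FPKM within a library was 5.52 to 9.37 in 2DC, 1.60 to 1.85 in 2DF and 0.765 to 1.06 in 3DF. INSIG1 was thus the more abundant paralog in every 2DC and 2DF library and not in every 3DF library.

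SREBF2 (chrUn0036:656537-719484), the most abundant regulator, was at 54.1, 59.8 and 72.0 FPKM in 2DC, at 37.3, 41.3 and 42.1 in 2DF and at 22.1, 27.7 and 26.6 in 3DF. The 3 conditions did not overlap. SREBF2 fell by 1.29 in 3DF against 2DC (SE 0.15, adjusted p = 0.00101) and by 0.62 in 2DF against 2DC (SE 0.12, adjusted p = 0.00906). SREBF1 was more spread, with 17.2, 25.0 and 31.1 FPKM in 2DC, 13.6, 18.1 and 13.5 in 2DF and 7.30, 12.4 and 17.2 in 3DF. Its fold change of -0.997 in 3DF against 2DC did not pass (SE 0.32, adjusted p = 0.0691), and the libraries overlapped. SREBF1 was called at -1.003 without the filter on low counts (adjusted p = 0.0346), at -1.04 with a replicate block (0.0027), at -1.20 without 2DC replicate 1 (0.0455) and at -1.32 without 3DF replicate 3 (0.0408). In 2DF against 2DC its fold change was -0.68 (adjusted p = 0.0552). The difference between SREBF1 and SREBF2 was not tested. SCAP was at 30.9 ± 1.33 FPKM in 2DC, 30.6 ± 1.08 in 2DF, and 32.6 ± 1.78 in the 3DF libraries, with a fold change of 0.071 in 3DF against 2DC (adjusted p = 0.695).

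Of the 6 transport genes, STARD4 fell and ABCA1, ABCG1 and MYLIP rose in 3DF against 2DC. STARD4 (chrUn0046:2105529-2125109), a carrier that moves cholesterol between membranes, was at 1.38, 3.00 and 6.01 FPKM in 2DC, at 0.394, 0.432 and 0.680 in 2DF and at 0.157, 0.294 and 0.0976 in 3DF. It was a gene of low counts, with 164 to 540 reads per 2DC library and 8 to 27 per 3DF library. The fold change was -4.23 ± 0.61 (adjusted p = 0.00279), with an SE larger than that of the enzymes. NPC1 and NPC2, which bring cholesterol out of late endosomes, were at 24.4 ± 1.99 and 73.2 ± 0.944 FPKM in 2DC and at 24.0 ± 2.79 and 68.0 ± 9.92 in 3DF. Their fold changes were -0.032 (adjusted p = 0.888) and -0.11 (adjusted p = 0.607).

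ABCA1 (chr1:8128430-8265889), the pump that loads cholesterol onto apolipoproteins, was at 14.8, 13.9 and 14.4 FPKM in 2DC, at 41.4, 39.4 and 29.9 in 2DF and at 102.0, 77.4 and 99.95 in 3DF. All 3 conditions were apart, and ABCA1 rose by 2.69 in 3DF against 2DC (SE 0.14, adjusted p = 6.84e-05), by 1.37 in 2DF against 2DC (SE 0.13, adjusted p = 0.000431) and by 1.34 in 3DF against 2DF (SE 0.18, adjusted p = 0.0024). ABCG1, which exports sterols to high-density lipoprotein, was at 0.496, 0.763 and 0.443 FPKM in 2DC, at 1.62, 1.92 and 1.24 in 2DF and at 1.30, 1.54 and 2.08 in 3DF. It rose by 1.52 in 3DF against 2DC (SE 0.28, adjusted p = 0.00805), and its fold change from 2DF to 3DF was 0.038 (adjusted p = 0.945). MYLIP, the most abundant gene of the step, was at 139.9, 109.7 and 86.4 FPKM in 2DC, at 127.5, 169.9 and 161.7 in 2DF and at 192.0, 200.1 and 209.3 in 3DF. It rose by 0.83 in 3DF against 2DC (SE 0.17, adjusted p = 0.0142), and without 2DC replicate 1 by 1.02. The ratio of ABCA1 to INSIG1 FPKM was 0.143 to 0.244 in the 2DC libraries, 1.52 to 2.90 in 2DF and 7.30 to 8.98 in 3DF.

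**Figure D3:**
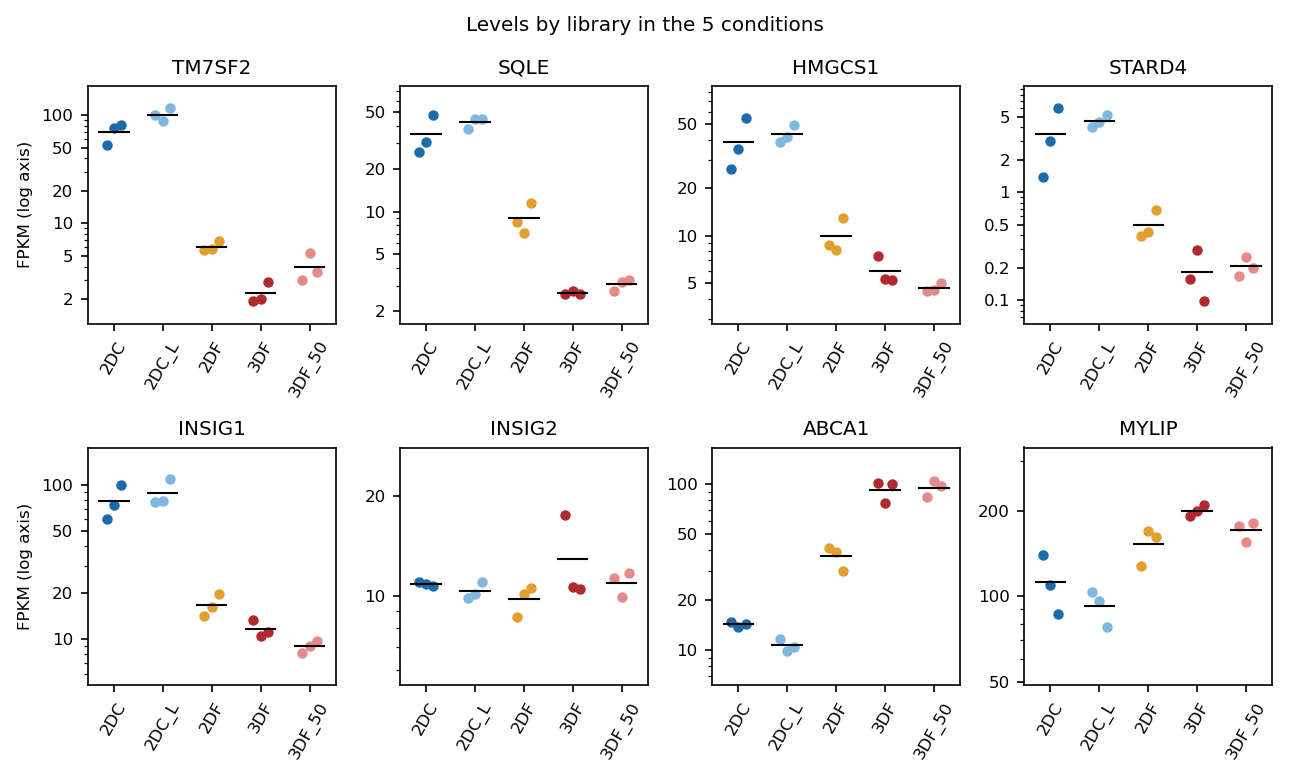
FPKM on a log axis of 8 genes in the 15 libraries (points, 3 per condition) with the mean of each condition (bar). TM7SF2, SQLE, HMGCS1, STARD4 and INSIG1 are highest in the coated dishes 2DC and 2DC_L, ABCA1 is highest in 3DF and 3DF_50, and INSIG2 stays between 8.63 and 17.5 FPKM.

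The fatty acid genes did not share a direction in 3DF against 2DC, while in 2DF against 2DC all 5 had a fold change below 0. ACLY, which supplies cytosolic acetyl-CoA to both routes, was at 56.7 ± 13.7 FPKM in 2DC, 28.1 ± 1.38 in 2DF, and 22.4 ± 2.79 in the 3DF libraries, and fell by 1.35 in 3DF against 2DC (SE 0.19, adjusted p = 0.00272). ELOVL6, which elongates palmitate, was at 6.75 ± 2.20, 4.44 ± 0.786 and 2.91 ± 0.490 FPKM and fell by 1.22 (SE 0.23, adjusted p = 0.00949). Without 2DC replicate 3 the ELOVL6 fold change was -0.92. ACACA, the acetyl-CoA carboxylase, was at 8.15 ± 2.33, 5.09 ± 0.381 and 4.52 ± 0.537 FPKM and fell by 0.86 (adjusted p = 0.0243).

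FADS1 and FADS2, genes on 1 scaffold for desaturases of polyunsaturated fatty acids, were lowest in 2DF. FADS2 (chrUn0019:2872569-2906600), the most abundant fatty acid gene, was at 27.2, 43.9 and 55.0 FPKM in 2DC, at 14.5, 19.9 and 12.7 in 2DF and at 85.5, 92.2 and 96.0 in 3DF. None of the 3 conditions overlapped. FADS2 fell by 1.41 in 2DF against 2DC (SE 0.25, adjusted p = 0.00703) and rose by 2.54 in 3DF against 2DF (SE 0.18, adjusted p = 0.000407). In 3DF against 2DC it rose by 1.11 (SE 0.23, adjusted p = 0.0135), with a fold change of 0.87 without 2DC replicate 1 and an adjusted p of 0.0541 without 2DC replicate 2. FADS1 (chrUn0019:2996949-3010699) was at 41.1, 56.1 and 65.6 FPKM in 2DC, at 24.2, 27.5 and 24.2 in 2DF and at 54.6, 52.1 and 49.3 in 3DF. FADS1 fell by 1.09 in 2DF against 2DC (SE 0.16, adjusted p = 0.00271), and by 0.94 without 2DC replicate 3. It rose by 1.04 in 3DF against 2DF (SE 0.13, adjusted p = 0.00157), and its fold change in 3DF against 2DC was -0.071 (adjusted p = 0.81). The ratio of FADS2 to FADS1 FPKM was 0.524 to 0.902 in every library of 2DC, 2DC_L and 2DF, and 1.57 to 1.97 in every library of 3DF and 3DF_50.

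**Figure D4:**
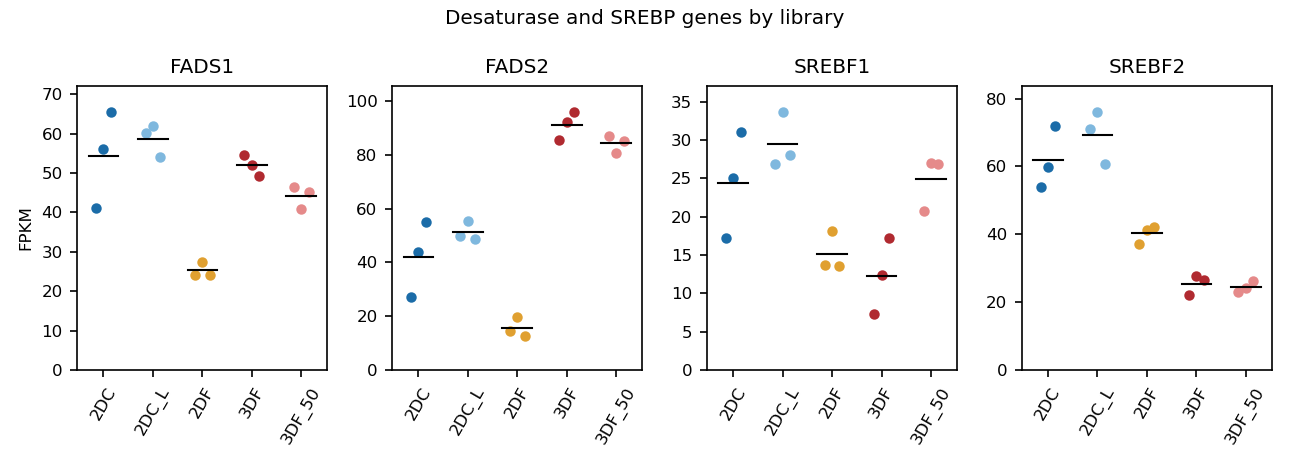
FPKM of FADS1, FADS2, SREBF1 and SREBF2 in the 15 libraries (points, 3 per condition; axes from 0) with the mean of each condition (bar). FADS2 is between 80.7 and 96.0 FPKM in the embedded cultures and between 12.7 and 19.9 in 2DF, and SREBF1 has a mean of 24.9 in 3DF_50 and 12.3 in 3DF.

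In 2DF against 2DC, where the cells stayed on a surface and the collagen changed from a coating to fibrils, 20 genes were DEGs, 18 lower and 2 higher, against 4.96% of the 13258 genes tested (2.93% lower and 2.04% higher). By the adjusted p alone 23 passed, against 14.4% of all genes. The median fold change of the 34 genes was -1.05, beside 0.0045 over all genes. By step, 5 of 8 mevalonate, 8 of 10 sterol, 1 of 5 regulator, 1 of 6 transport and 3 of 5 fatty acid genes were lower DEGs, and ABCA1 and ABCG1 were the higher ones. ABCG1 rose by 1.499 (SE 0.27, adjusted p = 0.0072) and STARD4 fell by 2.77 (SE 0.51, adjusted p = 0.00854). Without 2DF replicate 1 the adjusted p of STARD4 was 0.0515. FDPS fell by 2.26 (SE 0.18, adjusted p = 0.00027) and MSMO1 by 2.27 (SE 0.21, adjusted p = 0.000437). ACLY lay near the limit of 1, with a fold change of -1.002 (SE 0.16, adjusted p = 0.00442) and of -0.996, -0.82, -0.98 and -0.99 without 2DC replicate 2, 2DC replicate 3, 2DF replicate 1 and 2DF replicate 2. The FDFT1 fold change was -1.14 (SE 0.15, adjusted p = 0.00228), and -0.95 without 2DC replicate 3. SC5D, at -0.997 (adjusted p = 0.00441), reached -1.11, -1.06, -1.002 and -1.08 without 2DC replicate 1, 2DC replicate 2, 2DF replicate 1 and 2DF replicate 3. The comparisons of 2DF and 3DF with 2DC share the 2DC libraries, so that their values are given side by side only.

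No 2DF library shares the prefix of its name with a library of 2DC or 3DF. The sources used here do not say what the prefix stands for. Only 2DF replicate 1 shares its prefix with another condition, through 3DF_50 replicate 2. With the prefix as a block, the comparisons with 2DF therefore rest on that 2DF library. Their DEG counts below cannot test the calls made without the block, and a call missing there is not read as lost. With the prefix as a block in a fit of all 5 conditions, 5 genes (HMGCS1, FDPS, TM7SF2, MSMO1 and INSIG1) were DEGs in 2DF against 2DC, where 0.114% of the 14036 genes tested were. Among the other genes, the fold changes in that comparison were -2.07 for SQLE, -2.07 for EBP, -3.45 for STARD4 and 1.48 for ABCA1. In 3DF against 2DF the count with the prefix as a block was 0, and 0.0285% of all genes were DEGs. The fold changes in that fit were 2.41 for FADS2, -1.83 for SQLE and 1.16 for ABCA1. In 3DF against 2DC the block gave 23 DEGs (8.26% of all genes), with SREBF1 (-1.54), ACACA (-1.13) and MYLIP (1.07) added and FADS2 (0.999) lost.

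In 3DF against 2DF, where the collagen was the same and the cells were embedded or on top, 6 genes were DEGs against 3.78% of the 13195 genes tested. MVK, SQLE and TM7SF2 were lower (1.69% of all genes) and ABCA1, FADS1 and FADS2 higher (2.09%). The median fold change of the 34 genes was -0.279, beside 0.011 over all genes. MVK was at 3.36, 2.70 and 4.18 FPKM in 2DF and at 1.32, 2.11 and 1.56 in 3DF and fell by 1.03 (SE 0.24, adjusted p = 0.031). This call was lost on leaving out each of 4 libraries in turn, the MVK adjusted p being 0.1001 without 2DF replicate 1, 0.121 without 2DF replicate 3, 0.0555 without 3DF replicate 1 and 0.0956 without 3DF replicate 3. By the adjusted p alone 10 genes passed, against 6.05% of all genes tested. Of the further 4, FDPS fell by 0.92 (SE 0.16, adjusted p = 0.00991), MSMO1 by 0.80 (SE 0.18, adjusted p = 0.032), ACAT2 by 0.67 (SE 0.15, adjusted p = 0.0262) and SREBF2 by 0.66 (SE 0.14, adjusted p = 0.0185). FDFT1, LOC100355623, SC5D and HSD17B7 had fold changes between -0.074 and 0.17, with none past the test.

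The conditions 3DF_50 and 2DC_L share no library with 3DF or 2DC but differ also in the digestion step. Every 2DC_L library, and 3DF_50 replicates 1 and 3, share a name prefix with a library of 2DC or 3DF. In 3DF_50 against 2DC_L, 21 genes were DEGs, 19 lower and 2 higher. In this comparison 13.5% of the 13321 genes tested were DEGs (8.47% lower and 5.05% higher), and the median fold change of the 34 genes was -1.34. By the adjusted p alone 29 genes passed, against 42.9% of all genes tested. Among the 34, the DEGs of 3DF against 2DC and of this comparison had 20 genes in common in the same direction, 95.2% of each list, with FADS2 only in the first and SC5D only in the second. The same overlap over all genes is not given, so that this share cannot be called particular to these genes. TM7SF2 was at 100.5, 87.5 and 116.2 FPKM in 2DC_L and at 2.98, 5.34 and 3.54 in 3DF_50 and fell by 4.67 (SE 0.19, adjusted p = 2.37e-07). SQLE fell by 3.77 (SE 0.11, adjusted p = 3.68e-08), from 37.8, 44.5 and 44.8 FPKM to 2.75, 3.18 and 3.33. INSIG1 fell by 3.29 (SE 0.15, adjusted p = 4.26e-07) and STARD4 by 4.44 (SE 0.20, adjusted p = 3.71e-07). SC5D fell by 1.29 (SE 0.10, adjusted p = 1.31e-05) and FADS2 rose by 0.72 (SE 0.086, adjusted p = 0.00014).

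ABCA1 was at 11.8, 9.90 and 10.5 FPKM in 2DC_L and at 83.8, 104.2 and 97.8 in 3DF_50, a rise of 3.15 (SE 0.13, adjusted p = 2.15e-07). ABCG1 was at 0.740, 0.665 and 0.845 FPKM in 2DC_L and at 2.32, 2.94 and 2.66 in 3DF_50, a rise of 1.83 (SE 0.16, adjusted p = 2.03e-05). MYLIP rose by 0.89 (SE 0.12, adjusted p = 0.000324). The ratio of ABCA1 to INSIG1 FPKM was between 0.0962 and 0.152 in 2DC_L and between 9.96 and 11.5 in 3DF_50. FADS1, which did not pass in 3DF against 2DC, fell by 0.41 here (SE 0.090, adjusted p = 0.00497).

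Digestion before lysis (2DC against 2DC_L) and cell density in 3D (3DF against 3DF_50) gave 0 DEGs among the 34 genes. Of all genes tested, 0.265% were DEGs for digestion and 0.452% for density. By the adjusted p alone the count was also 0 in both, against 0.367% and 0.617% of all genes. At an unadjusted p under 0.05 there were 4 genes in each comparison, a limit for which the share over all genes is not given. DESeq2 called 0 of the 34 for digestion and 1 for density, beside 49 of 19015 and 202 of 18894 of all genes tested. In 2DC against 2DC_L the fold change was below 0 in 29 of 34 genes, with a median of -0.204, beside -0.0048 over all genes tested. The lowest adjusted p was 0.181, for ABCA1 (fold change 0.42 ± 0.083). Markers of an early response to handling, such as FOS and EGR1, summed to between 34.6 and 46.6 FPKM in 2DC_L and to between 1151 and 1349 in 2DC. On fibrillar collagen that sum was higher, at 2981 to 3507 FPKM in 2DF, 2160 to 4196 in 3DF and 1733 to 2173 in 3DF_50. Per the paper, matrices were lifted and digested in tubes and the cells pelleted, while coated dishes were digested in place. The part of this handling difference in the coated and fibrillar values was not tested. In 3DF against 3DF_50 the lowest adjusted p was that of SREBF1. It was at 7.30, 12.4 and 17.2 FPKM in 3DF and at 20.8, 27.0 and 26.9 in 3DF_50, which did not overlap, with a fold change of -1.04 ± 0.27 (adjusted p = 0.0997). SREBF1 was called by DESeq2 (adjusted p = 0.00458), without the filter (0.0291), with all 5 conditions in the fit (0.0303) and with a replicate block (0.032). The ratio of SREBF2 to SREBF1 FPKM was 1.54 to 3.02 in 3DF and 0.898 to 1.10 in 3DF_50. ABCG1 was at 1.30, 1.54 and 2.08 FPKM in 3DF and below every 3DF_50 library, with a fold change of -0.72 (adjusted p = 0.119).

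In all 18 genes that were lower in 3DF, 2DC replicate 1 was the lowest and 2DC replicate 3 the highest of the 3, with a median of 1.79 times between them. The 10 sterol genes summed to 344.9, 446.9 and 578.3 FPKM in 2DC, to between 528.6 and 621.7 in 2DC_L, to between 122.6 and 152.5 in 2DF and to between 105.8 and 113 in the embedded cultures. The 5 markers of cycling cells, among them MKI67 and TOP2A, summed to 5.41, 15.97 and 38.7 FPKM in 2DC and to between 14.9 and 29.1 in 2DC_L. On fibrillar collagen that sum was 2.53 to 4.64 FPKM, so that cycling markers and sterol genes were both highest in the coated dishes. The part of the cycling cells in the difference was not tested.

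**Figure D5:**
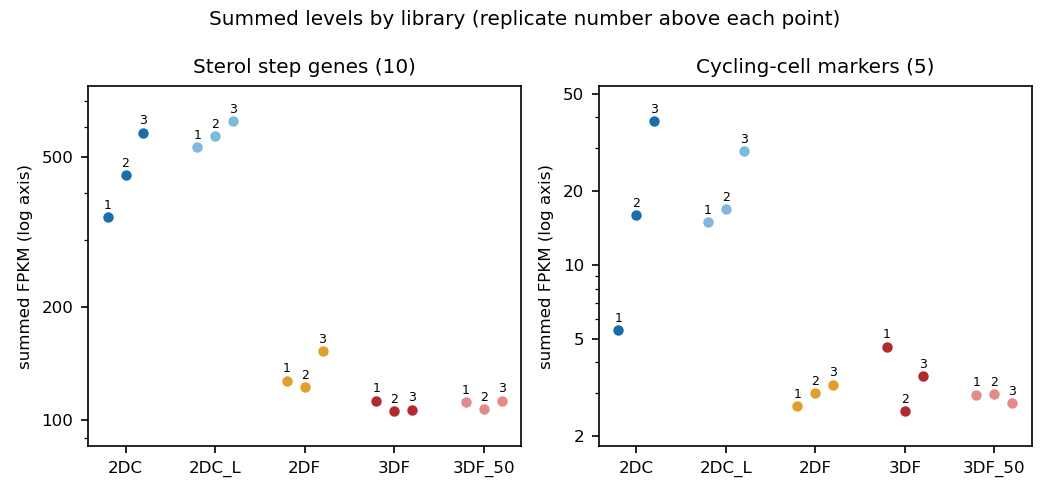
Summed FPKM on a log axis of the 10 sterol genes (left) and of the 5 cycling-cell markers (right) in each library, with the replicate number above each point. Sterol sums are 344.9 or more in the 6 coated-dish libraries and 152.5 or less in the 9 fibrillar ones, and 2DC replicate 1 has the lowest sum of the coated dishes in both panels.

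Of the coated and fibrillar libraries, 5 pairs share the prefix of their names, each with 1 library of 2DC or 2DC_L and 1 of 3DF or 3DF_50. The pairs are not independent, since 2DC_L replicate 3 and 3DF_50 replicate 1 each stand in 2 of them. Of the 34 genes, 26 to 28 were lower in the fibrillar library of a pair, with a median difference of log2(FPKM + 1) between -1.43 and -0.91. These differences between single libraries were not tested, and the share over all genes is not given for them. ABCA1 was at 9.90 to 14.4 FPKM in the coated and at 77.4 to 102.0 in the fibrillar libraries of these pairs. No such pair exists for 2DF.

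Further genes around the pathway were taken from a list of 65, of which 63 have a row and 58 were tested in each comparison. In 3DF against 2DC, 3 of the 58 were higher and 2 lower DEGs, 8.62% of them beside 7.56% of all genes tested. NR1H3, which encodes a liver X receptor, rose by 1.41 (SE 0.17, adjusted p = 0.00121), from 1.67 to 4.48 FPKM in the mean. APOD, a lipid-binding apolipoprotein, rose by 1.60 (SE 0.17, adjusted p = 0.0006) from 1046 to 3188 FPKM, and ACSL1, which activates long-chain fatty acids, by 1.77 (SE 0.11, adjusted p = 0.000124) from 13.9 to 47.8 FPKM. LIPA, the lysosomal lipase that frees cholesterol from its esters, fell by 1.21 (SE 0.17, adjusted p = 0.00272), and FABP3, a fatty acid carrier, by 1.90 (SE 0.35, adjusted p = 0.00898). The 13 genes that use isoprenoids, such as the prenyltransferase subunits, held 0 DEGs in 3DF against 2DC by edgeR, beside 7.56% of all genes tested. Their median fold change was 0.053. At an unadjusted p under 0.05 there were 5 of them, and the share over all genes at that limit is not given. The 11 genes of SREBP processing and sterol sensing held NR1H3 as their 1 DEG and had a median fold change of -0.021.

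In 2DF against 2DC, 2 of the 58 genes were DEGs, both lower, a share of 3.45% beside 4.96% of all genes tested. These were FABP3 (-2.21 ± 0.32, adjusted p = 0.00307) and ACSS2, which makes acetyl-CoA from acetate (-1.01 ± 0.16, adjusted p = 0.00441). In 3DF against 2DF, NR1H3 rose by 1.55 (SE 0.20, adjusted p = 0.00199) and APOD by 1.95 (SE 0.30, adjusted p = 0.00479), and no gene of the list was a lower DEG, beside 1.69% of all genes tested. NR1H3 was thus at 1.53 FPKM in the mean of 2DF, and at 4.48 in that of 3DF. In 3DF_50 against 2DC_L, 4 genes of the list were higher and 8 lower DEGs, 20.7% of the 58 beside 13.5% of all genes tested, led by NR1H3 (1.79 ± 0.16, adjusted p = 2.22e-05) and FABP3 (-2.98 ± 0.35, adjusted p = 0.00012). VLDLR, a lipoprotein receptor, fell by 1.87 (SE 0.22, adjusted p = 0.000108) and FNTB, the beta subunit of farnesyltransferase, by 1.42 (SE 0.10, adjusted p = 5.99e-06).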

How the data were processed

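Bulk RNA-seq of rabbit corneal keratocytes was analysed in 15 libraries, 3 for each of 5 conditions. The authors aligned reads to oryCun2 with HISAT2 2.0.5 and counted them per gene with featureCounts 1.5.0-p3, per the study's methods. The deposited counts are whole reads per gene with no normalization, and the deposited FPKM are those counts per kilobase of gene model, scaled to a library size that the authors set, 0.921 to 1.24 times the sum of the counts. Between 14626982 and 31804255 reads were counted per library, which limits genes such as STARD4 to few reads. Library preparation and strandedness are not given in the sources used here. Groups came from the library labels.

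Pairs of conditions were tested with the quasi-likelihood F test of edgeR 4.0.16 (R 4.3.3), two-sided, after removing genes below filterByExpr's minimum count of 10 and scaling by TMM, with no other condition in the fit, following the study's pairwise design and its limits of 0.05 and 1. The study used DESeq2 for this, which here, as version 1.42.0, is an alternative. The SE is the absolute log2 fold change divided by the square root of F. All scripts that test across genes were tested on simulated counts. The separate experiments of a condition are its replicates. Full statistics are given for genes called in any comparison and for the most abundant gene of each step, and for SREBF1, added after its values were seen. From the wider pathway list at most 3 genes per direction and comparison are named. The genes, lists and tests were chosen with earlier results of these data known. Alternatives were DESeq2, other scaling, other filters, all conditions in the fit, 2 kinds of block, the adjusted p alone and leaving out each library. Gene symbols were matched to RefSeq (33 of 34). Tables and figures used Python 3.11.15, numpy 2.4.6, pandas 2.3.3 and matplotlib 3.10.9.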

Additional observations from a re-analysis of the deposited data

How the results depend on the processing

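Leaving out each library in turn gave 19 to 23 called genes in 3DF vs 2DC, 17 to 21 in 2DF vs 2DC, 5 to 7 in 3DF vs 2DF, 21 to 22 in 3DF_50 vs 2DC_L, 0 in 3DF vs 3DF_50 and 0 in 2DC vs 2DC_L, and 28 to 30 differing over the 5 conditions. Over all genes tested, these fits called 750 to 1028, 410 to 670, 339 to 520, 1677 to 1924, 0 to 77 and 28 to 38 genes in the same order. Over the 5 conditions it was 4921 to 6240 genes. Of 68 calls among the 34 genes, 60 held in all of these fits. With the library prefix as a block, the comparisons with 2DF rest on 2DF replicate 1, so that this block cannot test their calls. By the adjusted p alone the count was 10 in 3DF vs 2DF. In 3DF vs 3DF_50 the count was 1, SREBF1, with DESeq2, with no filter, with all conditions in a single fit and with the replicate block. Of all genes tested, 202, 155, 196 and 86 were called there. No comparison had all 3 correlations of deviations between same-numbered libraries above 0.1. Some of these libraries share a name prefix. Their correlations were 0.32 and 0.064 for replicates 1 and 2 of 2DC and 2DC_L, and 0.26 for replicate 3 of 3DF_50 and 2DC_L. Whether replicate numbers pair the samples thus stays unsettled. With the replicate block the counts were 22, 19, 5, 21, 1 and 0 in the order above, with 29 over the 5 conditions. Among all genes tested they were 1006, 628, 427, 1839, 86 and 37, with 5503 over the 5 conditions. Scaling by library size alone moved the median of all genes by 0.175 in 3DF vs 2DC, 0.106 in 2DF vs 2DC, 0.355 in 3DF_50 vs 2DC_L and -0.161 in 3DF vs 3DF_50. It called 21, 18, 5 and 21 of the 34 genes in the 4 comparisons with calls, beside 1124, 655, 552 and 2104 of all genes tested. Over the alternatives, 80 values past the adjusted p were followed, and none of them changed its sign. Those of ACACA, PMVK, GGPS1 and HSD17B7 were not followed. Levels under 1 FPKM, as for STARD4 and ABCG1, rest on few reads.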
